A study of Homo sapiens with 16 samples.

Results

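The core spliceosome snRNP proteins are the proteins that build the small nuclear ribonucleoprotein particles of the splicing machinery. The genes were taken by symbol from the protein-coding genes of GENCODE release 44, using the SNRP, SNRNP, SF3A, SF3B, PRPF, U2AF and LSM2 to LSM8 names. The rule gave 50 genes, and all 50 were among the 60107 Ensembl genes in the count files. A filter on mean normalised count left 48 of them for testing in each comparison, and the 2 that did not pass were SF3B4 and U2AF1.

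The study measured cytoplasmic mRNA in U2OS cells, a human osteosarcoma line, that stably carry the tetracycline repressor (U2OS-TR). In 1 clonal derivative, U2OS-TR/ΔN-RNMT, a tetracycline-inducible transgene encodes a form of the cap methyltransferase RNMT that stays in the cytoplasm and inhibits cap methylation there. The Control group was this line left uninduced (5 libraries), and the Induced group was the same line after 24 h with doxycycline (5 libraries). The parental line was compared without (No Dox, 3 libraries) and with doxycycline (With Dox, 3 libraries). All cells were grown for 48 h before the treatment step, the stated dose being 1 μg/ml, and the labels list that step for every sample, uninduced ones included. Because the line is 1 clone, chosen for how it expressed the transgene, the replicates do not cover variation between clones. Parental libraries were also sequenced separately from those of the transgene line, so that line and sequencing run cannot be told apart.

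Splicing starts when U1 snRNP binds the 5′ splice site and U2AF and U2 snRNP recognise the 3′ end of the intron and the branch point. The U4/U6.U5 tri-snRNP then joins, and rearrangement of its RNAs and proteins forms the catalytic centre. Most of these RNAs carry a ring of Sm proteins that is loaded in the cytoplasm, whereas U6 carries a ring of LSM proteins. The mRNAs of all these proteins are translated in the cytoplasm, and that cytoplasmic pool is what was measured.

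The cap that RNMT methylates sits on the first transcribed base. For that reason the annotated start regions of 4 members called lower and 4 called higher in Induced libraries are shown first, each with 40 bases before the annotated RefSeq start (GRCh38.p14) in lower case and the first 10 transcribed bases in capitals, read 5′ to 3′ on the gene's strand. PRPF6 lies at chr20:63981092-63981141 on the plus strand, SF3B5 at chr6:144095564-144095613 on the minus strand, PRPF38A at chr1:52404562-52404611 on the plus strand and SNRPA at chr19:40751163-40751212 on the plus strand. SF3B1 lies at chr2:197435084-197435133 on the minus strand, PRPF18 at chr10:13586925-13586974 on the plus strand, SF3B6 at chr2:24076317-24076366 on the minus strand and LSM8 at chr7:118184124-118184173 on the plus strand.
PRPF6: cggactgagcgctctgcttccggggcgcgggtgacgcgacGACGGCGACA
SF3B5: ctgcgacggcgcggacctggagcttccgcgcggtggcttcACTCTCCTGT
PRPF38A: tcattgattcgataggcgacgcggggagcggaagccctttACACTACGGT
SNRPA: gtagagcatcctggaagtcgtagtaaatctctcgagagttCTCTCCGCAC
SF3B1: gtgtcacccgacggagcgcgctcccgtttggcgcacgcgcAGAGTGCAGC
PRPF18: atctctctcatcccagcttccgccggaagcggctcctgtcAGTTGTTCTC
SF3B6: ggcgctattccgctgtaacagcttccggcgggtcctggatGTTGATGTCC
LSM8: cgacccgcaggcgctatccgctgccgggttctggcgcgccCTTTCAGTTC

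A RefSeq window of 300 bases was found for 42 of the 50 members. A terminal oligopyrimidine-like start, taken here as a C at the annotated start followed by at least 4 pyrimidines, was present in 4 of those windows, in 4.69% of the windows of 15343 protein-coding genes and in 5.52% of those of genes tested in the transgene line. Those 4 were SNRPA, which was called lower, LSM8, which was called higher, and LSM2 and SF3A2, which were not called. The motif CGGAAG, which resembles the core bound by ETS family factors, was searched on both strands of the window. It was present in 25 of the 42 member windows (59.5%), in 25.9% of all protein-coding windows and in 34.1% of the windows of genes tested in the transgene line. The motif was found for 5 of the 8 members called lower that had a window, for 6 of the 7 called higher and for 13 of the 25 not called. These matches describe letters in annotated windows, and the start sites used in these cells were not mapped.

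Library totals ran from 18991617 to 23251834 gene counts in Control, from 12527183 to 20781875 in Induced, and from 1473286 to 3214808 in the parental libraries. RNMT itself, a check of the labels, ran from 55.5 to 112 CPM (counts scaled to library size) in Control and from 265 to 457 in Induced, with a log2 fold change of 2.22 ± 0.23 (SE, edgeR adjusted P = 0.00806). The members took 0.88% to 0.924% of all gene counts in Control and 0.906% to 0.959% in Induced. Of the osteosarcoma line's markers, RUNX2, COL1A1, SPARC and VIM had counts in all 16 libraries, whereas SP7 and BGLAP had 0 counts in all 16, COL1A2 in 14 and IBSP in 15. The summed level of that marker list was 305 to 640 CPM in Control and 492 to 883 CPM in Induced, that of 4 markers of other cell types was 5.5 to 12.9 and 7.84 to 17 CPM, that of 4 nuclear-retained RNAs was 736 to 929 and 490 to 895 CPM, and their part in the results was not tested. CPM are shares of a library, so that fewer cells expressing a gene and less of its RNA per cell cannot be told apart. The libraries Control 5 and Induced 2 lay between the groups. Over the 13038 genes tested, Control 5 was the control library nearest to the induced mean for 70.8%, and Induced 2 the induced library nearest to the control mean for 60.8%. RNMT was at 112 CPM in Control 5 and at 360 CPM in Induced 2.

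Expression of ΔN-RNMT was accompanied by changes in both directions among the snRNP protein mRNAs. Throughout, a gene is called when its P value from edgeR's quasi-likelihood test, adjusted over all genes tested by the Benjamini-Hochberg method, is below 0.05. In Induced compared with Control libraries, 10 of the 48 members tested were lower (20.8%) and 9 were higher (18.8%), and 29 were not called. Over all 13038 genes tested, 19.8% were called lower and 20.0% higher, so the members' shares were near the background. The median log2 fold change was -0.09 over the members and 0.04 over all genes. Every induced value was below every control value for 3 members, of which SNRPD2 was called and SNRPC and LSM4 were not, and above every control value for SF3B1 and PRPF18, both called. The same complete separation was seen in 4.22% of all genes downward and in 3.08% upward. With 1 surrogate variable in the model none of the 48 members was called, and 1 gene was called among all genes tested. An unadjusted edgeR P below 0.05 was found in that fit for 17 of the 48 members, beside 4278 of the 13038 genes. Without Control 5 and Induced 2 together, 16 members were lower and 17 higher, beside 30.5% and 33.8% of all genes. Because those libraries were left out for their position between the groups, the larger counts follow in part from the choice.

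**Figure D1:**
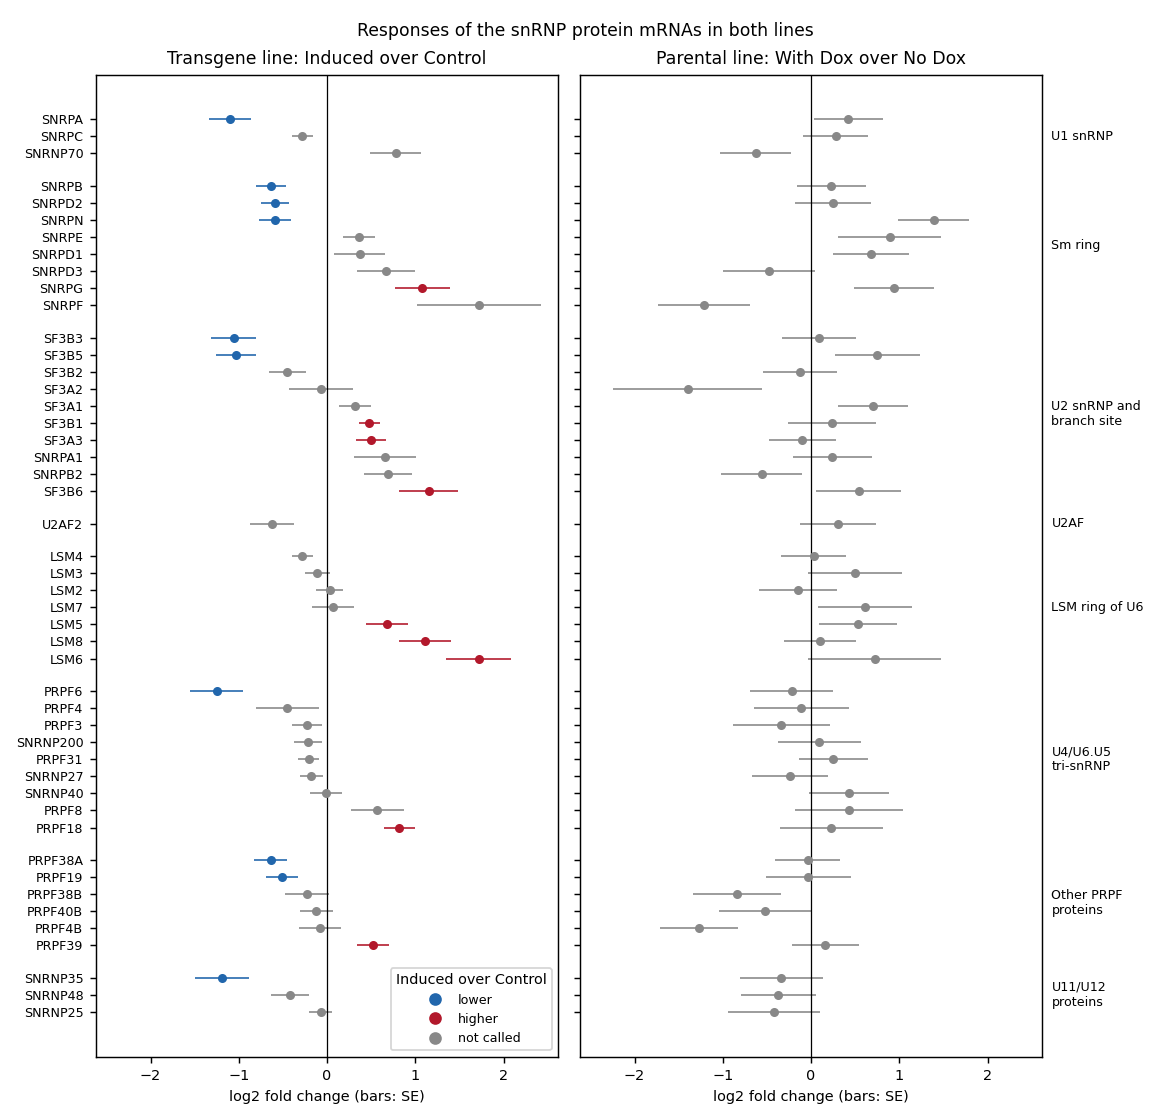
Log2 fold change (horizontal axis, bars are SE) of the members tested, except 1 that is not reported here, grouped by particle. Left, Induced over Control (5 libraries each), with members called lower in blue (10), higher in red (9) and not called in grey; right, With Dox over No Dox in the parental line (3 libraries each), where 0 members were called. Members called in both directions occur in the Sm ring, U2 snRNP, the tri-snRNP and the other PRPF proteins.

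Of the 3 proteins specific to U1 snRNP, 1 was lower and 0 were higher, beside 19.8% and 20.0% of all genes, and the others were not called. SNRPA, the U1 protein A that binds a stem-loop of U1 RNA, was measured at 361, 396, 446, 305 and 196 CPM in Control 1 to 5 and at 129, 225, 147, 130 and 166 CPM in Induced 1 to 5. Its log2 fold change was -1.10 ± 0.24 (SE, edgeR adjusted P = 0.0175), and only Control 5 lay within the range of the induced values. SNRPA lies at chr19:40750637-40765389 (GRCh38) on the plus strand, and ACTMAP overlaps it on the opposite strand. SNRPC, the U1 protein C that contacts the 5′ splice site duplex, ran from 580 to 617 CPM in Control and from 439 to 537 in Induced. These ranges did not overlap, yet the difference of -0.28 ± 0.12 on the log2 scale did not pass (edgeR adjusted P = 0.0887). SNRPC has 18 annotated pseudogenes, whose reads the counting could have split from it. SNRNP70, the U1-70K protein, was at 35.3 to 115 CPM in Control and 84.4 to 166 CPM in Induced (log2 fold change 0.78 ± 0.29, edgeR adjusted P = 0.0520).

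Among the 8 proteins of the Sm ring, 3 were lower and 1 was higher, beside 19.8% and 20.0% of all genes, and 4 were not called. SNRPB and SNRPN encode the closely related SmB/B′ and SmN proteins. SNRPB was at 282, 285, 279, 247 and 182 CPM in Control 1 to 5 and at 170, 194, 163, 130 and 168 CPM in Induced 1 to 5 (log2 fold change -0.63 ± 0.17, edgeR adjusted P = 0.0191). SNRPN was at 260, 253, 317, 239 and 161 CPM in the control libraries and at 159, 172, 176, 144 and 165 CPM in the induced ones (-0.59 ± 0.18, edgeR adjusted P = 0.0251). For both genes the first 4 controls lay above every induced value and Control 5 lay among them. SNRPN (chr15:24823637-24978723, plus strand) overlaps SNURF and other transcripts on its own strand. Reads shared with them may have been counted for it or set aside as ambiguous, which was not resolved here. SNRPD2, the SmD2 protein, was measured at 1085, 1118, 905, 1067 and 901 CPM in Control 1 to 5 and at 578, 813, 607, 600 and 783 CPM in Induced 1 to 5. The groups did not overlap, and the log2 fold change was -0.59 ± 0.16 (edgeR adjusted P = 0.0191).

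SNRPG, which encodes SmG, was the Sm protein mRNA that was called higher. It was measured at 16.6, 16.1, 17.5, 17.5 and 27.1 CPM in Control 1 to 5 and at 48.3, 13.6, 48.0, 42.4 and 48.9 CPM in Induced 1 to 5 (log2 fold change 1.08 ± 0.31, edgeR adjusted P = 0.0227). Induced 2 was below every control, and the other 4 induced libraries were above every control. There are 20 annotated SNRPG pseudogenes, and reads shared with them could not be assigned here. SNRPF, encoding SmF, varied most: 83.6, 52.8, 20.5, 109 and 499 CPM in the controls against 642, 189, 617, 559 and 505 CPM in the induced libraries. Control 5 lay among the induced values, and the log2 fold change of 1.72 ± 0.70 did not pass (edgeR adjusted P = 0.0681). SNRPD3, encoding SmD3, was at 135 to 689 CPM in Control and 568 to 685 CPM in Induced, with Control 5 above every induced library (0.67 ± 0.33, edgeR adjusted P = 0.113). SNRPD1 and SNRPE, the remaining ring members, had log2 fold changes of 0.37 ± 0.29 and 0.36 ± 0.18 and were not called.

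In U2 snRNP, 2 of the 10 tested proteins were lower and 3 were higher, beside 19.8% and 20.0% of all genes. Members called in each direction included subunits of SF3B, the complex that holds the branch point. SF3B5, a small SF3B subunit, was measured at 2048, 2194, 3156, 1831 and 1225 CPM in Control 1 to 5 and at 919, 1248, 1002, 927 and 1028 CPM in Induced 1 to 5. The log2 fold change was -1.03 ± 0.23 (edgeR adjusted P = 0.0175), and the ranges met only where Control 5 fell just below Induced 2. SF3B3, the large scaffold subunit of the complex, was at 112 to 323 CPM in Control and at 77.1 to 136 CPM in Induced (-1.06 ± 0.26, edgeR adjusted P = 0.0175). In the opposite direction, SF3B1, the subunit that clamps the branch helix and is recurrently mutated in blood cancers, was at 31.3, 31.5, 29.1, 33.6 and 32.3 CPM in Control 1 to 5 and at 48.1, 40.6, 44.2, 44.2 and 42.5 CPM in Induced 1 to 5. Every induced library was above every control, including Control 5 and Induced 2, and the log2 fold change of 0.48 ± 0.12 was a modest one (edgeR adjusted P = 0.0177).

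SF3B6, the p14 subunit that sits next to the branch point adenosine, was at 55.8, 51.7, 62.6, 56.2 and 116 CPM in the controls and at 158, 59.1, 182, 156 and 205 CPM in the induced libraries. It rose by 1.15 ± 0.33 on the log2 scale (edgeR adjusted P = 0.0216), with Induced 2 at the control level. SF3A3, a subunit of the SF3A complex, was at 72.6 to 124 CPM in Control and 110 to 147 CPM in Induced (0.50 ± 0.17, edgeR adjusted P = 0.0346). The U2 proteins SNRPA1 (0.66 ± 0.35) and SNRPB2 (0.69 ± 0.27), together with SF3A1 (0.32 ± 0.18), SF3A2 (-0.07 ± 0.36) and SF3B2 (-0.45 ± 0.21), were not called. SF3B4 had 0 to 14 counts per library, with 5 of the 16 libraries at 0, and was not tested.

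**Figure D2:**
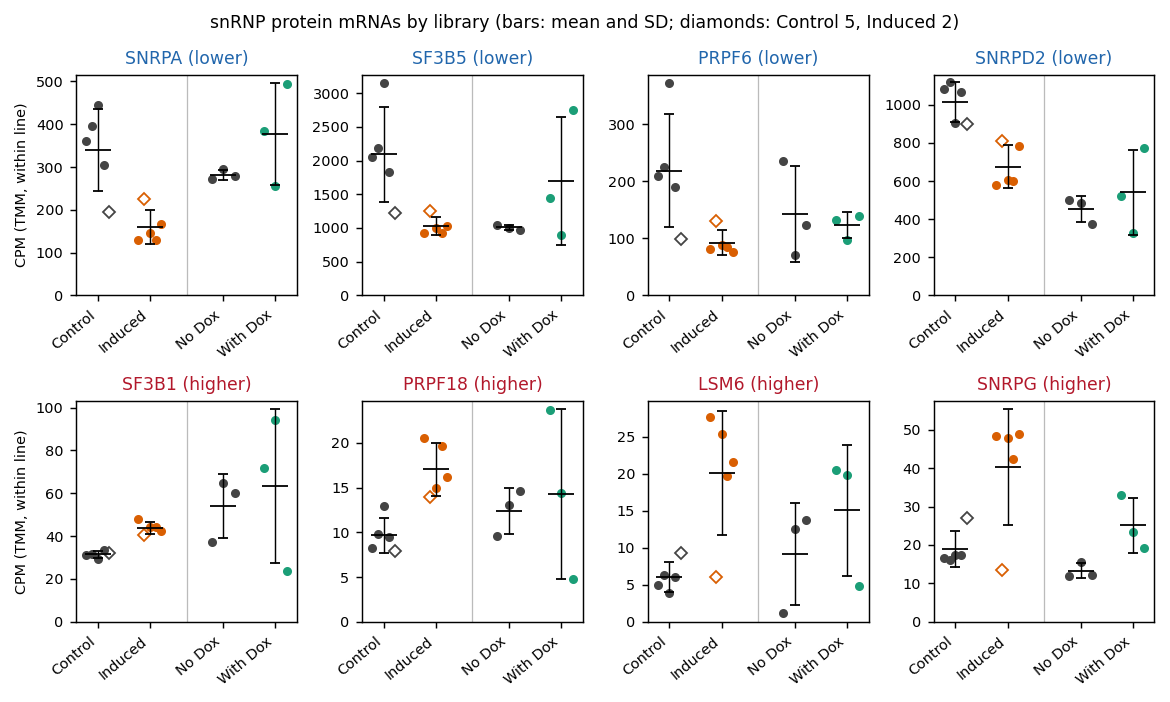
CPM (linear axis from 0, scaled within each line) of 4 members called lower (top) and 4 called higher (bottom) in every library of the 4 groups, with bars for mean and SD (n = 5 or 3). Open diamonds are Control 5 and Induced 2. SNRPD2, SF3B1 and PRPF18 separate Control from Induced completely, whereas LSM6 and SNRPG have Induced 2 among or below the controls.

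U2AF recognises the polypyrimidine tract and the terminal AG of the intron through its large and small subunits. The large subunit gene, U2AF2, was at 105, 113, 151, 94.4 and 55.3 CPM in Control 1 to 5 and at 61.1, 65.1, 54.4, 61.9 and 94.6 CPM in Induced 1 to 5. Its log2 fold change of -0.62 ± 0.25 was not called (edgeR adjusted P = 0.0617), and both groups held 1 library at the level of the other. The small subunit gene, U2AF1, had a total of 2 counts over the 16 libraries, with 14 libraries at 0. The genome build holds a near-identical second copy of this gene, so that no level can be given for U2AF1 from these files.

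In the LSM ring of U6, 3 of 7 proteins were higher and 0 were lower, beside 20.0% and 19.8% of all genes. LSM6 was measured at 4.92, 6.24, 3.83, 6.04 and 9.31 CPM in Control 1 to 5 and at 27.6, 6.1, 25.3, 19.7 and 21.6 CPM in Induced 1 to 5. Its log2 fold change of 1.72 ± 0.37 (edgeR adjusted P = 0.0175) was the highest among the members called, and Induced 2 alone stayed at the control level. LSM8, the subunit that distinguishes the nuclear ring from the cytoplasmic LSM1 ring used in mRNA decay, was at 13 to 37.2 CPM in Control and 24.9 to 57.5 CPM in Induced (1.11 ± 0.29, edgeR adjusted P = 0.0190). LSM5, common to both rings, was at 81.1 to 170 CPM in Control and 103 to 217 CPM in Induced (0.68 ± 0.24, edgeR adjusted P = 0.0439). LSM4, also common to both, was at 133 to 151 CPM in Control and at 106 to 125 CPM in Induced, which did not overlap, but the difference of -0.28 ± 0.12 was not called (edgeR adjusted P = 0.0734). LSM2 (0.03 ± 0.15), LSM3 (-0.11 ± 0.14) and LSM7 (0.07 ± 0.24) had changes within 1 SE of 0.

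Of the 9 proteins of the U4/U6.U5 tri-snRNP, 1 was lower and 1 was higher, beside 19.8% and 20.0% of all genes, and 7 were not called. PRPF6, which bridges U5 with U4/U6, was measured at 209, 226, 372, 190 and 98.2 CPM in Control 1 to 5 and at 82.3, 131, 88.0, 84.6 and 75.9 CPM in Induced 1 to 5. The log2 fold change was -1.25 ± 0.30 (edgeR adjusted P = 0.0175), with the first 4 controls above all induced libraries. PRPF18, a U5-associated factor of the second catalytic step, was at 8.26, 9.86, 12.9, 9.46 and 7.92 CPM in the controls and at 20.6, 13.9, 14.9, 19.7 and 16.2 CPM in the induced libraries. It was higher by 0.82 ± 0.18 on the log2 scale (edgeR adjusted P = 0.0175), and the groups did not overlap. The large U5 proteins were not called: PRPF8, which forms the catalytic core, had a log2 fold change of 0.57 ± 0.30 (12.8 to 60.2 CPM over both groups) and SNRNP200, the helicase that unwinds U4/U6, one of -0.22 ± 0.16. PRPF31, which holds the U4/U6 junction and is mutated in retinitis pigmentosa, was at 66.4 to 76.5 CPM in Control and 52.5 to 68.1 CPM in Induced (-0.21 ± 0.12, edgeR adjusted P = 0.189).

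Outside these particles, 2 of the 7 other PRPF proteins were lower and 1 was higher, beside 19.8% and 20.0% of all genes. PRPF38A, which enters with the tri-snRNP and acts in spliceosome activation, was at 119 to 245 CPM in Control and 97.6 to 135 CPM in Induced (log2 fold change -0.64 ± 0.19, edgeR adjusted P = 0.0239). PRPF19, the ubiquitin ligase that names the Prp19 complex, was at 277 to 452 CPM in Control and 188 to 301 CPM in Induced (-0.51 ± 0.18, edgeR adjusted P = 0.0407). PRPF39, a U1-associated factor of alternative splicing, was higher, at 4.16 to 7.97 CPM in Control and 7.27 to 9.60 CPM in Induced (0.52 ± 0.18, edgeR adjusted P = 0.0420). The minor spliceosome protein SNRNP35, the U11/U12 counterpart of U1-70K, was at 127, 149, 237, 122 and 74.9 CPM in Control 1 to 5 and at 59.5, 94.2, 61.2, 61.8 and 33.9 CPM in Induced 1 to 5. This was a log2 fold change of -1.19 ± 0.31 (edgeR adjusted P = 0.0187). The other two U11/U12 proteins, SNRNP25 (-0.07 ± 0.13) and SNRNP48 (-0.42 ± 0.21), were not called.

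The position of the intermediate libraries was visible in nearly every member that was called. Control 5 was the control nearest to the induced mean for 17 of these 19 members (89.5%), and Induced 2 was the induced library nearest to the control mean for 18 (94.7%). Over all 5183 genes called the corresponding shares were 89.6% and 85.3%. With both libraries left out, the log2 fold change was -1.40 for SNRPA, -1.25 for SF3B5, -1.59 for PRPF6, 1.47 for SNRPG and 2.15 for LSM6, each farther from 0 than with all 10 libraries, while PRPF18 stayed at 0.82. All 10 members called lower and all 9 called higher were called again in that fit. Both libraries were left out for lying nearest to the other group, so larger changes and kept calls follow in part from that choice. Leaving out a single library moved the count of members lower to 5 without Control 2 or Induced 4, beside 9.53% and 7.14% of all genes. It was 6 without Induced 1 or Induced 3, beside 7.27% and 9.14%. The count of members higher moved to 3 without Control 2 or Induced 1, beside 7.08% and 6.99% of all genes. It was 4 without Control 1, Induced 3 or Induced 4, beside 8.08%, 8.5% and 7.38%. Without Control 5 it was 16, beside 31.2% of all genes. Over these 10 fits, PRPF19, PRPF39, LSM5 and SF3A3 each lost their call in 8, SNRPG, SF3B6 and SNRPN in 5, PRPF38A and SNRPD2 in 4, and LSM8 and SNRPB in 2.

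**Figure D3:**
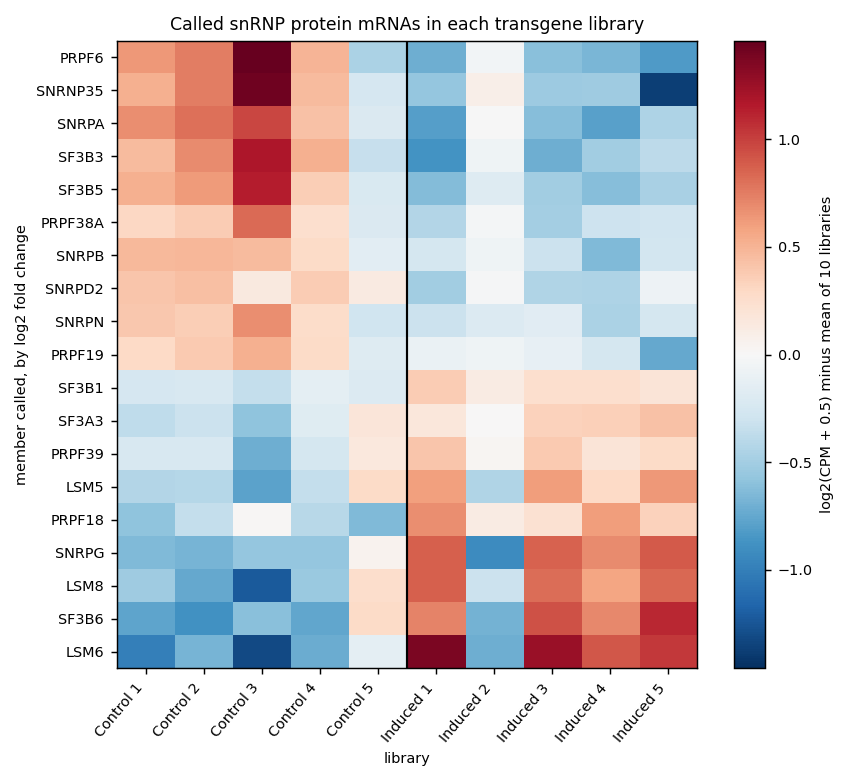
Deviation of log2(CPM + 0.5) from the mean of the 10 transgene libraries (colour) for the 19 members called, ordered by log2 fold change, with Control libraries left of the line and Induced libraries right of it. Control 5 and Induced 2 have paler or opposite colours in most rows, being nearest to the other group for 17 and 18 of the 19 members.

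Direction of change varied with the GC content of the transcript. Of the 20 members whose canonical transcript is under 45% GC, 8 were higher and 1 was lower, the exception being PRPF38A. Of the 13 above 55% GC, 5 were lower and 0 were higher. The same was seen for all genes: under 45% GC, 33.6% were higher and 4.31% lower, and above 55% GC, 6.81% were higher and 40.2% lower. Spearman's rho between GC content and log2 fold change was -0.47 across the 48 members and -0.43 across 12922 genes, where genes share the same libraries and are not independent. The mean GC content of the genes counted, weighted by counts, was 49.4% to 50.6% in Control and 48.5% to 49.5% in Induced, and the part of GC content in these changes was not tested beyond the following fit. With offsets for GC content fitted to each library, 10 members were lower and 2 were higher, and 8 and 1 of these were among those called without the offsets. In the same fit 14.8% of the 12922 genes were lower and 11.9% higher. SNRPA (-0.78), SF3B5 (-0.75), PRPF6 (-0.94), SF3B3 (-1.15), SNRNP35 (-1.15), SNRPD2 (-0.43), SNRPN (-0.56) and PRPF38A (-1.06) remained lower. LSM6 (1.32) remained higher and SNRNP70 (1.19) became so, whereas SF3B1 (0.10), PRPF18 (0.38), SNRPG (0.66), SF3B6 (0.73), LSM8 (0.53), LSM5 (0.14), PRPF39 (0.01) and SF3A3 (0.36) no longer passed. Among the members called lower, PRPF19 (-0.25) and SNRPB (-0.29) no longer passed.

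**Figure D4:**
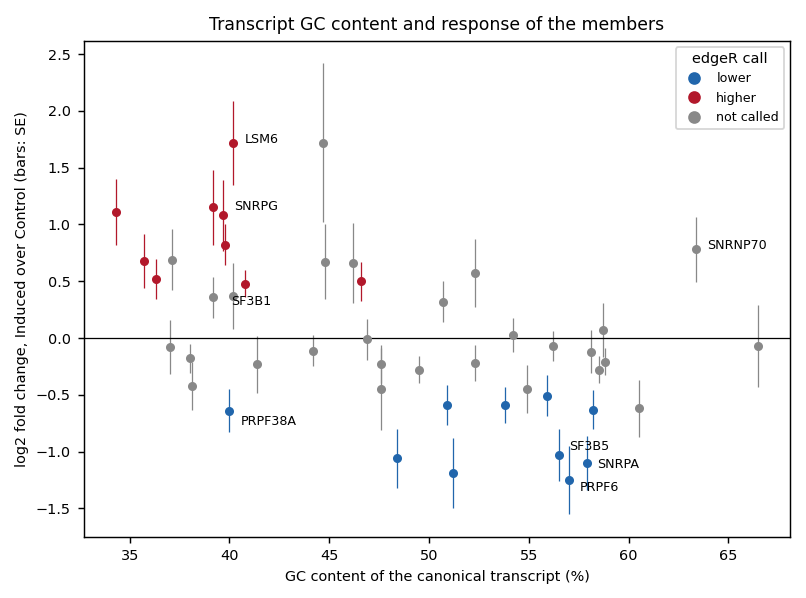
GC content of the canonical transcript (horizontal axis, percent) against the log2 fold change of Induced over Control (vertical axis, bars are SE) for the same members, coloured by edgeR call. Members called higher lie mostly under 45% GC (8 of 9) and those called lower mostly above it (9 of 10). PRPF38A and SNRNP70 lie away from this trend.

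A wider list of 90 other splicing genes was examined beside the members, of which 87 were tested. Here 10 were lower (11.5%) and 19 were higher (21.8%), beside 19.8% and 20.0% of all genes, with a median log2 fold change of 0.13. In the sublist for snRNP assembly, GEMIN2 (2.54) and DDX20 (1.37), subunits of the SMN complex that loads the Sm ring, were higher, as were 3 others of the 19 tested, and 2 were lower. Of 28 further U1, U2 and tri-snRNP factors 2 were lower and 4 higher, and of 31 Prp19 complex and catalytic factors 3 were lower, with PPIL1 (-0.87) the lowest, and 9 were higher, with BUD13 (1.59) the highest. Of 9 proteins of the minor spliceosome 3 were lower, among them ARMC7 (-1) and SCNM1 (-0.94), and 1 was higher.

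Doxycycline alone was examined in the parental line. None of the 48 members tested was called, nor was any of the 9124 genes tested (0%), and 3 members had an unadjusted edgeR P below 0.05 beside 2.93% of all genes. DESeq2 also called 0 members and called 1 gene lower among all genes. Its unadjusted P was below 0.05 for 4 members, beside 357 of the 9124 genes. The parental libraries were shallower and fewer, with a common biological coefficient of variation of 0.444 against 0.320 in the transgene line. The SE of SF3B1, for example, was 0.50 here and 0.12 there. Reads assigned to no gene numbered 1.11 to 1.5 per gene count here and 0.0744 to 0.106 in the transgene line. Mitochondrial protein-coding genes took 1.36% to 5.12% of counts here and 0.463% to 1.11% there. The summed level of the 4 nuclear-retained RNAs was 459 to 1620 CPM in No Dox and 263 to 442 CPM in With Dox. The part of these differences in the results was not tested. SNRPN was at 43.2, 84.4 and 84.7 CPM in No Dox 1 to 3 and at 197, 184 and 175 CPM in With Dox 1 to 3. The groups did not overlap, and the log2 fold change was 1.39 ± 0.40 with an edgeR adjusted P of 0.997. PRPF4B, a kinase that phosphorylates spliceosome proteins, was at 34.8, 26.7 and 30.1 CPM without and at 9.06, 14 and 15.1 CPM with doxycycline (-1.27 ± 0.44, edgeR adjusted P = 0.997). SNRPF was at 416, 559 and 387 CPM without and at 170, 337 and 78.7 CPM with doxycycline (-1.21 ± 0.52, edgeR adjusted P = 0.997). The median log2 fold change of the members was 0.09, against -0.01 over all genes.

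The response of the transgene line was then compared with that of the parental line in 1 model of the 16 libraries. The difference was called for 3 of 48 members (6.25%), each more negative in the transgene line, beside 2.20% of the 12265 genes tested. In the other direction 0 members were called, beside 0.775% of these genes. SNRPN differed by -2.22 on the log2 scale (edgeR adjusted P = 0.0290), having been called lower in the transgene line and having higher values with doxycycline in the parental line. SF3B5 differed by -2.03 (edgeR adjusted P = 0.0442). Its parental values were 1040, 1006 and 977 CPM without doxycycline and 1440, 898 and 2751 CPM with it. SNRPA differed by -1.76 (edgeR adjusted P = 0.0450), having been at 272, 295 and 278 CPM and at 384, 255 and 494 CPM in the same parental libraries. For both of these genes the With Dox 3 library was the highest and the groups overlapped. These calls depended on single libraries: SNRPN lost its call in 10 of the 16 fits that left out 1 library, and SF3B5 and SNRPA in 13 of 16. None of the members was called in the fits without Control 1, 2, 3 or 4, without Induced 1, 3, 4 or 5, without No Dox 1 or without With Dox 1. In those fits no gene at all was called, except without Control 3 (0.0329% lower, 0.0164% higher) and without Induced 5 (0.0165% each). A total of 1 was called without No Dox 2, No Dox 3 or With Dox 3, 6 without With Dox 2 and 9 without Control 5. Without No Dox 2, No Dox 3 and With Dox 3, 0.666%, 3.06% and 0.104% of all genes were lower, and 0.297%, 2.5% and 0.0399% higher. In the fits without With Dox 2 and without Control 5, 6.88% and 10.4% of all genes were lower and 6.39% and 8.45% higher, respectively. With Control 5 and Induced 2 both left out, 13 of the 48 members differed, beside 13.6% of all genes lower and 11.7% higher.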

How the data were processed

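Cytoplasmic poly(A) RNA of 16 cultures was made into QuantSeq REV libraries, which give 1 tag near the 3′ end of each transcript. The authors deposited whole-number read counts per Ensembl gene, 1 file per library, made with a Lexogen QuantSeq REV pipeline on GRCh38. The version of the aligner and the strand setting of the counter are not given in the sources used here. Spike-in entries (92, all at 0) and 5 summary entries were left out.

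Genes were named from GENCODE 44. Genes with a mean DESeq2-normalised count above 20 in the libraries compared were tested with edgeR 4.0.16 (R 4.3.3; TMM normalisation, quasi-likelihood test, Benjamini-Hochberg adjustment, threshold 0.05), each line alone and all 16 libraries together for the difference between lines. An SE is the absolute log2 fold change divided by the square root of F. CPM were scaled by TMM within each line, so levels carry no meaning across lines. The script was tested on simulated data. Alternatives were DESeq2 1.42.0, its size factors, total counts, other filters, a replicate block, GC offsets (lowess, span 0.5), 1 surrogate variable (sva 3.50.0) and leaving out libraries. Replicates share numbers across groups, but a pairing by number was not shown and the main fits used none.

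Members and lists were chosen with earlier results of these data known. Named were all members called in the transgene line, 13 fixed members, the 3 with the lowest P in the other comparisons, and up to 3 per direction of the wider list. Other members are given by their values with their group. The values of 1 member are not reported here, though it stays in the counts. P values measure the spread between these cultures, those of 1 clone, of the parental line, or of both for the difference between lines.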

Additional observations from a re-analysis of the deposited data

Results flagged for a closer look

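The highest or lowest of 5 libraries lay far from the others for 4 members, in 5 of 54 groups examined. These groups were Control and Induced for the members called in the transgene line and for the fixed members except U2AF1. The other members, SNRPF among them, were not examined. Chance would set such a library apart in about 1 in 20 independent groups, but these groups share the same libraries. In Control 5, SF3B6 was at 116 CPM, with the other controls at 51.7 to 62.6 CPM, and SNRPG was at 27.1 CPM, with the others at 16.1 to 17.5 CPM. In Induced 2, PRPF6 was at 131 CPM, beside 75.9 to 88.0 CPM in the others, and SNRPG was at 13.6 CPM, beside 42.4 to 48.9 CPM. In Induced 5, U2AF2 was at 94.6 CPM, beside 54.4 to 65.1 CPM in the others.

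The response to doxycycline was called different between the transgene and the parental line, by the interaction test in edgeR, for 3 of 48 members. Over all genes, 2.20% were called lower and 0.775% higher. The difference, transgene minus parental on the log2 scale, was -2.22 for SNRPN, -2.03 for SF3B5 and -1.76 for SNRPA. Line and sequencing run cannot be told apart in these values. Of 16 fits that left out 1 library, SNRPN lost its call in 10, and SF3B5 and SNRPA in 13. With filterByExpr 0 members were called.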

How the results depend on the processing

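All 10 members called lower and all 9 called higher were called again by DESeq2 (13 and 11 in all) and with filterByExpr. Of all genes, DESeq2 called 23.5% lower and 22.2% higher, and filterByExpr 18.2% and 18.3%. Members called lower numbered 6 with total counts alone, a scaling that moved the median of all genes from 0.04 to 0.28, and 0 with 1 surrogate variable; members called higher numbered 5 with no filter, 2 with GC offsets, 4 with GC offsets and the replicate block, and 0 with 1 surrogate variable. Total counts alone called 13 higher and moved the members' median from -0.09 to 0.14. Of all genes, total counts alone called 10.8% lower and 30.8% higher, and no filter 8.04% and 9.21%. GC offsets called 14.8% and 11.9%, GC offsets with the block 14.3% and 16.8%, and 1 surrogate variable 0% and 0.00767%. Without both intermediate libraries, an alternative chosen after seeing the data, 16 were lower, 17 higher and 13 differed between lines. Leaving out 1 library at a time gave 5 to 13 lower, 3 to 16 higher and 0 to 9 that differed between lines. Over all genes those fits gave 7.14% to 27.4% lower and 6.99% to 31.2% higher in the transgene line. For the difference between lines they gave 0% to 10.4% lower and 0% to 8.45% higher. The difference between lines was called for 6 members by DESeq2, 0 with filterByExpr, 1 with no filter, 1 with the replicate block and 1 with GC offsets and the block. In the same order, 7.35%, 0.00607%, 0.148%, 0.921% and 0.698% of all genes were lower, and 4.79%, 0.0121%, 0.381%, 0.889% and 0.879% higher. No member was called in the parental line under any alternative run. The sign turned for LSM4 with GC offsets (0.05, and 0.05 with the block), PRPF31 with total counts (0.03) and GC offsets (0.13, and 0.13 with the block), SNRNP200 with total counts (0.02) and PRPF8 with the surrogate variable (-0.02), none of which was called. The cause of these shifts was not tested.

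The replicate block gave 10 members lower and 11 higher in the transgene line, beside 17.3% and 22.5% of all genes. Correlations of same-numbered libraries ran from -0.386 to 0.666 there and from -0.421 to 0.237 in the parental line. In these lines 1 of 5 and 1 of 3 libraries correlated best with its own number. A pairing by number was thus not shown, though so few libraries cannot exclude one. The parental libraries had 1473286 to 3214808 counts and 3 cultures a group; the part of depth and group size in the absence of calls there was not tested.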
